A study of Mus musculus with 55 samples.

Results

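Gene expression in the dorsal hippocampus of wild-type (WT) female mice was compared between proestrus and estrus. The libraries were taken by their labels alone. They are 5 libraries of WT mice in proestrus and 7 of WT mice in estrus, 12 of the 55 libraries of the series, with 1 mouse behind each. The other 43 libraries come from WT males, from WT females in metestrus or diestrus, and from Cnih3 knock-out (KO) mice of both sexes. Cnih3 encodes an auxiliary protein that brings AMPA-type glutamate receptors to the synapse, and the series asked how its loss and the estrous cycle act on hippocampal transcription.

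The proestrus mice, named 2_3, 20_2, 4_1, 5_4 and 8_2, were 18.71, 12, 15.86, 13.57 and 17.14 weeks old. The estrus mice, named 1_1, 2_1, 3_1, 3_2, 5_2, 5_3 and 8_3, spanned 16.29 to 20.29 weeks of age, and their median age was 16.86 weeks. None of the 12 carried the Cnih3 deletion, and none was treated. The background is C57/BL6j, and in the study's metadata mice 8_2 and 8_3 alone of the 12 came from Cnih3 breeding, as mutation-negative offspring. The stage rests on vaginal cytology, with nucleated epithelial cells marking proestrus and cornified cells marking estrus. No hormone level was used here, so the stage itself was not checked against these data. RNA came from the supernatant of a spun lysate and holds every cell type of the dissected piece.

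The estrous cycle of the mouse runs through proestrus, estrus, metestrus and diestrus. Estradiol and progesterone peak in proestrus, ovulation follows, and estrus is a stage of low estradiol. Hippocampal neurons and glia carry estrogen receptors, and the density of dendritic spines in the CA1 field is known to be high in proestrus and lower in estrus.

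Totals per library ranged from 25881295 to 63547098 counts across the series, and the 12 libraries lay between 25881295 (mouse 2_3) and 63321180 (mouse 1_1). A gene was tested where it exceeded 1 CPM (counts scaled to a common library size) in at least 10 libraries, which left 16168 genes. The labelled tissue was checked against marker lists of the hippocampal fields, and all 11 dentate granule cell markers, all 6 CA1 markers, all 7 CA2 markers and all 5 CA3 markers passed this filter. Cnih3 itself did not pass the test between the stages (log2 fold change -0.02, SE 0.16, FDR = 0.954). A pair of libraries stood apart from their groups. Proestrus mouse 8_2 had the lowest sample quality weight of the 12 (0.194, against 0.672 to 1.89 in the other 4 proestrus mice and 0.876 to 1.81 in estrus), and a lower weight means that a library lies further from its group. Estrus mouse 2_1 lay near the proestrus level for a group of co-varying genes described further on. The count of DEGs and the results on the co-varying genes are given with and without these libraries.

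Differentially expressed genes (DEGs) were taken at a false discovery rate (FDR) under 0.05. Of the 16168 genes, 1102 (6.82%) were DEGs between WT proestrus and WT estrus, with 849 (5.25%) higher in proestrus and 253 (1.56%) higher in estrus. The median size of the log2 fold change was 0.58 among the former and 0.34 among the latter, and 165 and 12 of them exceeded 1. Over all 16168 genes the median log2 fold change was -0.01. The genes higher in proestrus included 14 choroid plexus markers, 92 genes of a set that varies with Rbfa across the other libraries, and 5 markers of mature oligodendrocytes. The genes higher in estrus included 4 glutamate receptor subunits, and had longer transcripts with a lower GC content.

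The count of DEGs depended on the test and on single mice. It was 74 with DESeq2 and 15 with edgeR's quasi-likelihood test, and it was 0 in the limma fit without sample quality weights, where 1912 genes had an unadjusted p under 0.05 and the smallest FDR was 0.0534. Without mouse 4_1 the count was 561, without 2_3 it was 716, and without 5_4 it was 1686. Without mouse 8_2 it was 1389 with weights and 143 without them, and edgeR then gave 169. All 15 genes that edgeR called were also called by limma and by DESeq2, and 73 of the 74 that DESeq2 called were also called by limma.

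Mouse 8_2 stood apart from both stages. Its weight was low in the fit that chose the DEGs, so each proestrus mouse was also measured over the genes called without it, a measure chosen after seeing the data. Over the genes then higher in proestrus, the median distance of the left-out mouse from the estrus mean was 0.47 on the log2 scale in 2_3, 0.50 in 20_2, 0.59 in 4_1, 0.25 in 5_4 and 0.02 in 8_2. Over the genes then higher in estrus it was -0.31, -0.29, -0.23, -0.10 and 0.08. Over such genes 8_2 was thus near the estrus mean, while in other measures it lay outside both stages. Its ribosomal protein genes summed to 46820 CPM, against 25120 to 31370 in the other 11 mice. Its slope of expression on transcript length was -0.143 log2 units per doubling, against -0.062 to 0.060. In the study's metadata its RNA integrity, like that of 4_1, was lower than in the other proestrus mice. All 5 proestrus mice lay above all 7 estrus mice for 133 of all genes (0.823%), including 85 of the 849, and below them for 85 of all genes (0.526%), including 34 of the 253. Leaving out 8_2, the other 4 lay above all estrus mice for 596 genes (3.69%), including 418 of the 849, and below them for 283 (1.75%), including 95 of the 253.

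The library measures did not pass an exact test. Total counts were 47140000 ± 14040000 (SD, n = 5) in proestrus and 50050000 ± 10030000 (SD, n = 7) in estrus, with an exact permutation p of 0.667. The mitochondrial share of counts was 1.89% ± 0.685 and 2.29% ± 0.368 (exact permutation p = 0.212), and the share of the 50 most abundant genes was 20.6% ± 0.943 and 20.1% ± 1.00 (exact permutation p = 0.427). Age was 15.5 ± 2.697 and 17.7 ± 1.57 weeks, with an exact permutation p of 0.0972. Adjusted over these 4 two-sided tests, the p-values were 0.389 to 0.667.

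Values by mouse show what the calls rest on. Levels are in log2 CPM throughout, and fold changes are proestrus minus estrus on the log2 scale from the weighted fit. Col9a3, a chain of collagen IX, lies on chromosome 2 at 180597790 to 180622189 in GRCm38. It measured 3.03, 2.63, 3.39, 1.77 and 0.96 in proestrus mice 2_3, 20_2, 4_1, 5_4 and 8_2, against 0.11 to 1.44 in estrus with a median of 0.62. Mice 2_3, 20_2, 4_1 and 5_4 were above every estrus mouse and 8_2 was within the estrus range. The fold change was 2.03 (SE 0.29, FDR = 9.26e-05), the smallest FDR of the comparison, and Col9a3 was also called by edgeR and DESeq2.

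Ccnd3, cyclin D3, lies on chromosome 17 at 47505051 to 47599691. It measured 4.98, 4.78, 5.24, 4.73 and 4.05 in the proestrus mice, listed as for Col9a3, against 3.58 to 4.33 in estrus with a median of 3.95. Mouse 8_2 again fell inside the estrus range and the other 4 lay above it, with a fold change of 1.01 (SE 0.16, FDR = 0.000262). Ppp1r1b, which encodes the phosphatase inhibitor DARPP-32, measured 6.27, 6.38, 6.67, 5.96 and 5.26, against 4.30 to 5.65 with a median of 4.87. There, too, 8_2 alone of the 5 fell inside the estrus range, with a fold change of 1.32 (SE 0.21, FDR = 0.000297).

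Other genes separated the stages in every mouse. Vps72, a subunit of chromatin remodelling complexes that exchange the histone H2A.Z, lies on chromosome 3 at 95111022 to 95123051. It measured 6.08, 6.18, 6.26, 6.15 and 5.99 in proestrus and 5.38 to 5.74 in estrus with a median of 5.60, so that even 8_2 was above every estrus mouse. Its fold change was 0.61 (SE 0.10, FDR = 0.000621), and it was called by limma, edgeR and DESeq2, and by limma and edgeR without 8_2. Trip6, an adaptor protein of focal adhesions, measured 3.15, 1.93, 2.49, 2.40 and 2.12 against 0.77 to 1.81 with a median of 1.65. It had no overlap either, at a fold change of 1.09 (SE 0.19, FDR = 0.000811). Acbd4, an acyl-CoA binding protein, measured 5.84, 5.68, 5.77, 5.70 and 5.33 against 5.07 to 5.33 with a median of 5.16. There the lowest proestrus mouse only just cleared the highest estrus mouse, with a fold change of 0.59 (SE 0.10, FDR = 0.000297).

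In the other direction the changes were smaller and some were tighter. Ccdc36, the meiotic recombination factor IHO1, measured 1.44, 1.21, 0.76, 0.47 and 0.72 in proestrus against 1.70 to 3.38 in estrus with a median of 2.29. Its groups did not overlap, it fell by 1.29 (SE 0.30, FDR = 0.00751), and edgeR and DESeq2 called it too. Bmpr2, a bone morphogenetic protein receptor, measured 6.21, 6.01, 6.09, 6.20 and 6.32 in proestrus and 6.41 to 6.67 in estrus with a median of 6.55, with no overlap (-0.41, SE 0.09, FDR = 0.00446). Nckap1, a part of the complex that controls actin branching, measured 8.87, 8.82, 8.80, 9.00 and 8.84 against 9.02 to 9.18 with a median of 9.12. Every proestrus mouse was again below every estrus mouse (-0.24, SE 0.05, FDR = 0.00409), as for Fam13a (-0.42, SE 0.10, FDR = 0.00573). Without mouse 4_1 the calls of Ccdc36 (-1.05, FDR = 0.0656) and Fam13a (-0.33, FDR = 0.0746) were lost.

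**Figure D1:**
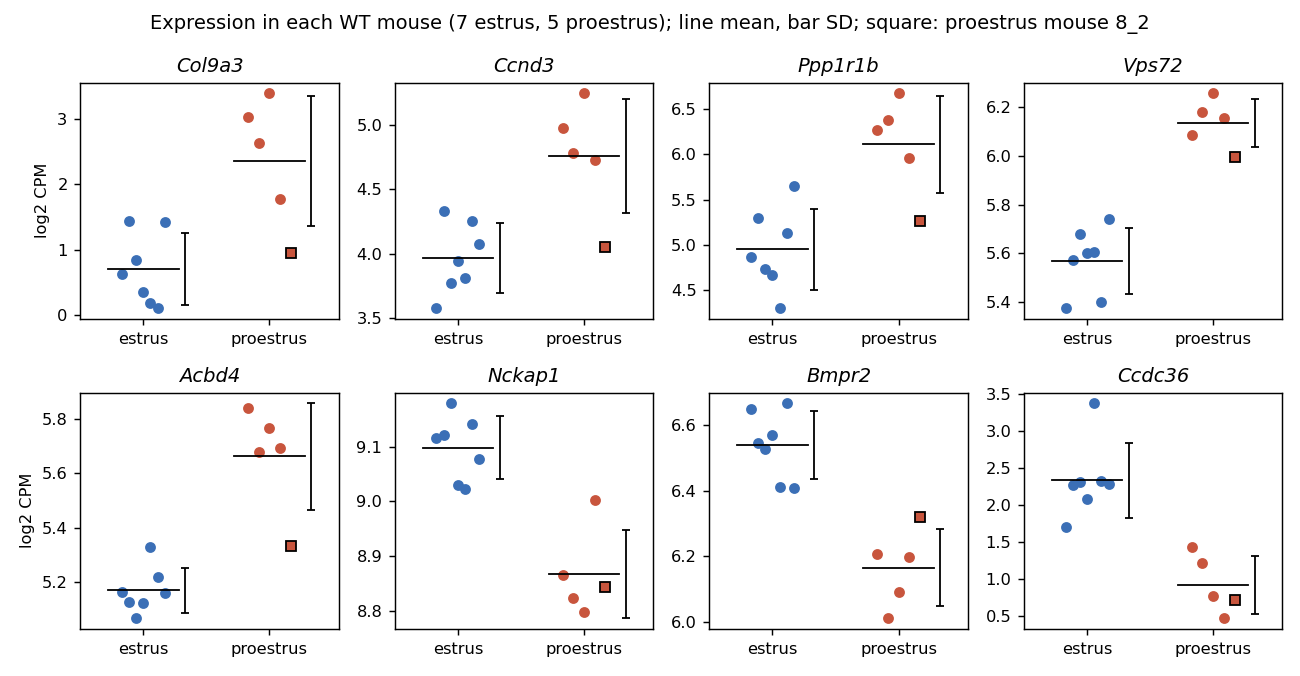
Log2 CPM by mouse of single genes in WT estrus (7 mice) and WT proestrus (5 mice), 1 point per mouse with the group mean and SD. Vps72 and Nckap1 show no overlap between the stages, while for Col9a3 and Ccnd3 mouse 8_2 lies in the estrus range.

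The largest changes belonged to the choroid plexus, the epithelium in the ventricles that makes cerebrospinal fluid. Of its 16 listed markers 14 rose in proestrus and none fell, against 5.25% and 1.56% of all genes, with a median log2 fold change of 3.20. Choroid plexus lies beside the hippocampus in the lateral ventricle, and in bulk samples fewer cells of a type and less RNA per cell cannot be told apart. The list's mean level was 3.50 in 2_3, 2.95 in 20_2 and 3.72 in 4_1, but -0.17 in 5_4 and 1.07 in 8_2, against -1.82 to 0.52 in the 7 estrus mice. Proestrus mouse 5_4 was thus within the estrus range and the other 4 were above it. Summed over the list, the markers took 58.24 to 1500 CPM in proestrus and 26.75 to 130.5 CPM in estrus. The call rests on few mice: without 4_1, 6 of the 16 were DEGs, without 20_2 8, and without 2_3 only 1. With edgeR none was called and with DESeq2 6 were.

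Ttr, the thyroxine carrier transthyretin and the most abundant mRNA of this epithelium, measured 10.33, 9.32, 10.36, 4.88 and 7.84 in proestrus. In estrus it ranged from 1.94 to 6.51 with a median of 4.28, so 5_4 lay inside the estrus range. The fold change was 4.59 with a SE of 1.20 (FDR = 0.0142). Otx2, the transcription factor that maintains the epithelium, measured 2.97, 3.40, 3.64, -0.54 and 1.42 against -1.65 to 0.36 with a median of -0.68. As for Ttr, 5_4 alone lay inside the estrus range, and the fold change was 3.16 (SE 0.80, FDR = 0.0113). Prlr, the prolactin receptor, measured 3.95, 3.13, 3.69, 1.73 and 1.96 against 1.00 to 2.00 with a median of 1.73, so that 2 of the 5 proestrus mice were inside the estrus range (1.66, SE 0.52, FDR = 0.0394). Kcne2 and Kcnj13, channel subunits of the epithelium, rose by 4.83 (SE 1.35, FDR = 0.021) and 3.81 (SE 0.98, FDR = 0.0126). The 2 listed markers that did not pass were the clotting factor F5 (1.56, FDR = 0.108) and Kl, encoding klotho, which hippocampal neurons also express (0.72, FDR = 0.0683).

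Genes outside the list moved with it. In the 43 other libraries of the series, 17 of the 16152 genes outside the list correlated with the list's mean level at a Pearson r over 0.8, and 14 of these were higher in WT proestrus. They include the beta-defensin Defb11 (4.98), the keratins Krt8 (3.23) and Krt18 (3.20) of simple epithelia, the phospholipase Enpp2 (1.67) and the retinol dehydrogenase Rdh5 (1.91). At r over 0.5 stood 66 of the 835 genes higher in proestrus outside the list (7.90%), against 0.848% of all genes. These correlations are over libraries that share depth and dissection, and are a description. Of 9 meningeal fibroblast markers 2 rose, Dcn (1.37, SE 0.39, FDR = 0.0233) and Col1a1 (0.85, SE 0.28, FDR = 0.0495), with a median of 0.86 and 9 of 9 positive, against 5.25% of all genes higher. The count was 0 with edgeR, DESeq2 or no quality weights and without 4_1, 1 without 2_3, 8_2, 1_1, 2_1, 3_1 or 5_2, and 4 without 5_4. Of 8 ependymal markers, Rsph1 of the cilia rose (0.81, SE 0.24, FDR = 0.0309), against 5.25% of all genes. No marker of brain endothelium (12), mural cells (6) or blood (5) passed.

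High choroid plexus levels also occurred outside proestrus. The list's mean was -0.37 to 3.92 in the 4 KO proestrus mice and -1.23 to 3.63 in the 6 KO estrus mice, and reached 3.18 in WT males. In KO mice none of the 16 markers passed, although 16 of 16 fold changes were positive with a median of 1.28. With the list's mean as a covariate, the WT comparison had 929 DEGs. Of the 1102 found without it, 678 (61.5%) were kept and 11 changed sign.

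**Figure D2:**
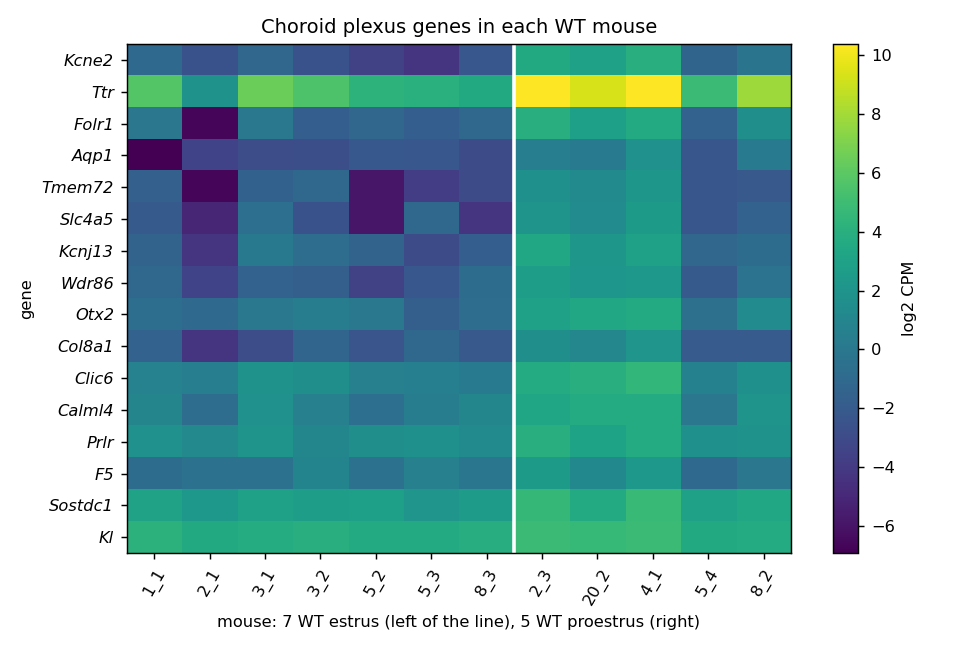
Heatmap of the log2 CPM of the 16 choroid plexus markers (rows, ordered by fold change) in the 7 WT estrus and 5 WT proestrus mice (columns). Proestrus mice 2_3, 20_2 and 4_1 are high across the rows, with a mean of 2.95 to 3.72, while 5_4, at a mean of -0.17, looks like the estrus mice.

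A second group of genes varied together with Rbfa, which encodes a factor for maturation of the small mitochondrial ribosomal subunit. Rbfa was chosen for this after its values were seen, since it had 1 of the largest fold changes. In the 43 libraries outside the comparison, 139 genes (0.86%), Rbfa included, had a Pearson r over 0.8 with it. Of these, 92 (66.2%) were higher in WT proestrus and none was lower, making up 10.8% of the 849. At r over 0.5 stood 273 of the 849 (32.2%), against 6.44% of all genes. As Rbfa was picked for its rise in proestrus, the direction and the excess follow in part from that choice. The count of 92 was the same without 8_2 (median 0.82), 108 without 2_1 (median 0.95) and 112 without both (median 0.96). It was 52 without 4_1, and edgeR, DESeq2 and the fit without quality weights called none of the 139, at medians of 0.67, 0.67 and 0.71. Without 8_2, edgeR called 5 and the fit without quality weights 13.

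Rbfa measured 3.43, 3.08, 4.38, 4.20 and 0.17 in proestrus and -0.28 to 3.73 in estrus with a median of 0.75. Mouse 8_2 was below the estrus median and estrus mouse 2_1, at 3.73, was among the proestrus values, with a fold change of 2.59 (SE 0.59, FDR = 0.00577). It was 2.63 (FDR = 0.00371) without 8_2 and 2.97 (FDR = 0.00355) without 2_1. Taf6l, a subunit of the SAGA-type acetyltransferase complex, measured 3.82, 4.08, 3.86, 4.15 and 0.94 against 0.33 to 3.62 with a median of 0.80 (2.35, SE 0.58, FDR = 0.01). Uqcrfs1, the Rieske protein of respiratory complex III, measured 7.77, 7.77, 8.05, 8.17 and 6.89 against 6.04 to 7.82 with a median of 6.36. There, too, 8_2 fell inside the estrus range (1.42, SE 0.34, FDR = 0.00882). Nrgn, neurogranin, a calmodulin-binding protein of dendritic spines, measured 10.80, 10.66, 11.43, 11.70 and 10.13 against 9.50 to 11.40 with a median of 9.79 (1.08, SE 0.31, FDR = 0.0247). Its call was lost without 4_1 (0.88, FDR = 0.12), 5_4 (0.89, FDR = 0.0583) or 1_1 (1.01, FDR = 0.0522). Lsm2, of the U6 snRNP (1.29, SE 0.29, FDR = 0.00573), Plk5, a dentate granule cell marker (1.01, SE 0.25, FDR = 0.0097), and Xbp1, a factor of the unfolded protein response (0.91, SE 0.29, FDR = 0.0418), belong to the same set. Plk5 was the only 1 of the 11 dentate granule cell markers with a positive fold change.

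The set's mean level in proestrus was 5.06, 4.99, 5.36, 5.38 and, in 8_2, 4.46. In estrus it was 3.87 to 4.49 in 6 mice and 5.23 in 2_1. Levels from 3.75 to 5.44 occurred among the other groups, males included, so high and low levels were found in both sexes. The median log2 fold change of the set was 0.84 in WT and -0.29 in KO, and 6 of the 92 DEGs had the same sign in both. KO proestrus mice measured 4.03 to 4.32 and KO estrus mice 3.81 to 5.18. With the set's mean as a covariate, an alternative chosen after seeing the data, the comparison had 2939 DEGs. They were 1423 higher in proestrus and 1516 higher in estrus, so that 48.4% rather than 77.0% were higher in proestrus. Of the 1102 found without it, 694 (63.0%) were kept.

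**Figure D3:**
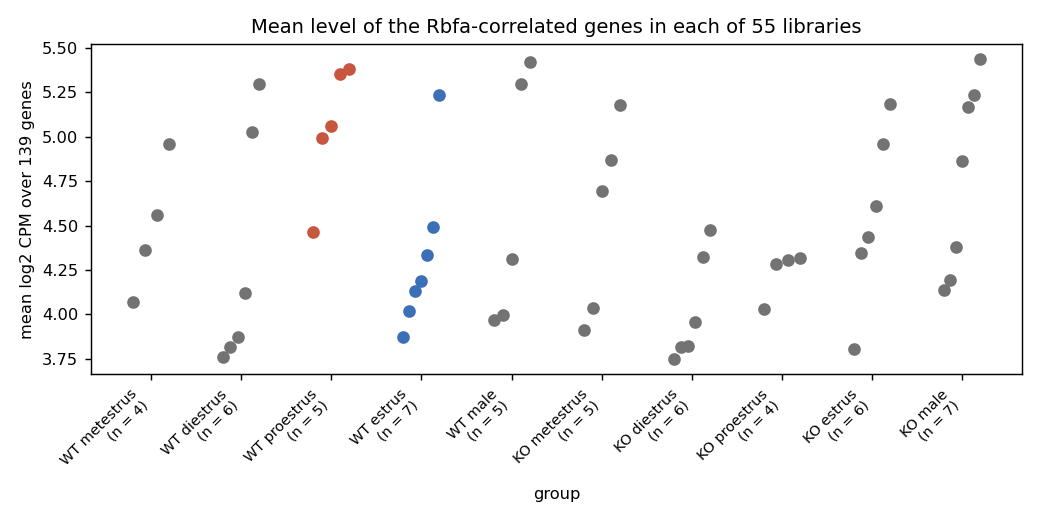
Mean log2 CPM of the 139 genes that correlate with Rbfa at r over 0.8 in the 43 other libraries, by library and group. WT proestrus mice other than 8_2 lie between 4.99 and 5.38, WT estrus mouse 2_1 at 5.23 is among them, and high and low libraries occur in most other groups.

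Base composition and transcript length differed between the directions. Protein-coding genes higher in proestrus (836) had a median GC content of 54.8% and a median exon length of 3423 bases, those higher in estrus (215) 45.6% and 8513 bases, and those not called 49.5% and 4628 bases. The share of genes higher in proestrus went from 1.31% in the bin under 40% GC to 18.1% in the bin over 60% GC. Across 16156 genes, which are not independent replicates, the fold change had a Spearman correlation with GC content of 0.264 in WT and 0.280 in KO. The correlation with length was -0.059 in WT and -0.379 in KO. The length difference in WT was thus seen between the DEGs and was weak over all genes. The slope of expression on GC content in single libraries, in log2 units per 10 percentage points of GC, was 0.023, -0.008, 0.118, 0.130 and 0.150 in the proestrus mice and -0.107 to -0.004 in the estrus mice, so that 4 of the 5 lay above all 7. After a correction of each library for GC content and length, chosen after seeing the data, 938 genes were DEGs. Of these, 516 were higher in proestrus and 422 higher in estrus, and 580 (52.6%) of the 1102 found without the correction were kept. The cause of these slopes was not tested.

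Among cell type markers of the hippocampus itself, most calls were of oligodendrocyte genes. Of 20 mature oligodendrocyte markers 5 rose and none fell, against 5.25% and 1.56% of all genes, with a median of 0.33 and 20 of 20 fold changes positive. They are Cnp, a myelin enzyme (0.57, SE 0.12, FDR = 0.0023), Ppp1r14a (1.29, SE 0.23, FDR = 0.000937), Gal3st1, which makes sulfatide (0.65, SE 0.16, FDR = 0.00942), the transcription factor Nkx6-2 (0.78, SE 0.20, FDR = 0.0142), and Mag, a myelin adhesion protein (0.64, SE 0.19, FDR = 0.0295). Cnp measured 9.93, 9.96, 10.07, 9.32 and 8.85 against 8.94 to 9.59 in estrus with a median of 9.24. Mice 2_3, 20_2 and 4_1, the same 3 that were highest for the choroid plexus list, were above all estrus mice, while 5_4 was within their range and 8_2 below it. Ppp1r14a varied with Rbfa in the 43 other libraries (r = 0.79). The list's mean level was 5.84 to 6.51 in proestrus and 5.66 to 6.12 in estrus, and the groups overlapped. Without 5_4, 14 of the 20 were DEGs, without 4_1 3 were, and with edgeR or DESeq2 none was. The myelin protein genes Mbp (0.31, FDR = 0.103) and Mog (0.40, FDR = 0.0908) did not pass.

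Of 14 oligodendrocyte precursor markers only Bmp4 rose, at 1.92, 1.85, 1.87, 1.23 and 1.66 against 0.05 to 1.19 with no overlap (0.90, SE 0.23, FDR = 0.0137). Over all genes 5.25% rose, and 0.823% had no overlap in that direction. The precursor list had a median of -0.06, with 6 of 14 fold changes positive. Of 13 astrocyte markers, the glutamate transporter Slc1a2 fell (-0.43, SE 0.11, FDR = 0.0148), against 1.56% of all genes, while 8_2 at 9.80 was above every estrus mouse. Of the pyramidal and granule cell markers, Plk5 rose and Dock10 (-0.31, FDR = 0.0451) and Nectin3 (-0.40, FDR = 0.0432) fell. The median of the 11 granule cell markers was -0.16, and only 1, Plk5, had a positive fold change. None of 15 interneuron and 13 microglial markers passed. Pituitary mRNAs were measurable in both stages and none of 3 passed. Prolactin (Prl) was 3.77 to 5.79 in proestrus and 3.77 to 5.93 in estrus, with a fold change of -0.05 (SE 0.67, FDR = 0.977).

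Genes of the hormone pathways passed the test in some lists and not in others. None of 12 steroid receptor genes passed, and their median was -0.09. Esr1, estrogen receptor alpha, measured 0.85 to 1.42 in proestrus with a fold change of 0.29 (SE 0.24, FDR = 0.52), and Esr2 was below the filter. Pgr, the progesterone receptor and itself an estrogen target, measured 4.09, 3.92, 4.10, 4.21 and 3.67 against 3.54 to 3.93 with a median of 3.74. Its fold change of 0.31 (SE 0.10) just missed the threshold at FDR = 0.0527, as did Srd5a3 of the 5-alpha-reductase family at 0.75 (SE 0.24, FDR = 0.0508). Of 18 estrogen targets, 3 rose, namely Xbp1, the retinoic acid receptor Rara (0.52, SE 0.17, FDR = 0.0457) and the chemokine Cxcl12 (0.41, SE 0.13, FDR = 0.049), against 5.25% of all genes, with a median of 0.06. Without 4_1, 3_1 or 5_2 none of the 18 passed, and without 1_1, 2_1 or 5_4 only 1 did. Of 13 neurosteroid enzymes and carriers, Tspo of the outer mitochondrial membrane rose (0.73, SE 0.23, FDR = 0.0418). None of 23 cholesterol synthesis genes and none of 17 clock genes passed. Of 21 immediate early genes, Junb rose (0.90, SE 0.26, FDR = 0.0301). In the prolactin and somatotropic axis, Cish, a feedback inhibitor of STAT5 signalling, rose by 0.74 (SE 0.21, FDR = 0.0214) beside Prlr, 2 of 12. In the thyroid and retinoid list 2 of 17 rose, Rara among them. The medians of these last 2 lists were -0.04 and 0.09. All these counts stand against 5.25% of all genes higher in proestrus. Prlr is also a choroid plexus marker, and its fold change was negative with that list's mean as a covariate.

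Promoter windows of 3 DEGs are shown because they hold AGGTCA, the core of the estrogen response element, on either strand. They cover 250 bases before to 50 after the start site in RefSeq's GRCm38.p6 and read 5′ to 3′ on the gene's strand, with the match in capitals. Ccnd3 (chr17:47504801-47505100, plus strand) rose in proestrus, Wdr86 (chr5:24730631-24730930, minus strand) is a choroid plexus marker that rose, and Grin2c (chr11:115267194-115267493, minus strand) fell.
Ccnd3: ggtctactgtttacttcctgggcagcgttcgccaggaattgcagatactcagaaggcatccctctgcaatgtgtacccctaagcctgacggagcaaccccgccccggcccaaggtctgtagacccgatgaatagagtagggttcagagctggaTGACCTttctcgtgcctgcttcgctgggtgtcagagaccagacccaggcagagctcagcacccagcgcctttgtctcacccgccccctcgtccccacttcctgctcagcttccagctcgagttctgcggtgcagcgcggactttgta
Wdr86: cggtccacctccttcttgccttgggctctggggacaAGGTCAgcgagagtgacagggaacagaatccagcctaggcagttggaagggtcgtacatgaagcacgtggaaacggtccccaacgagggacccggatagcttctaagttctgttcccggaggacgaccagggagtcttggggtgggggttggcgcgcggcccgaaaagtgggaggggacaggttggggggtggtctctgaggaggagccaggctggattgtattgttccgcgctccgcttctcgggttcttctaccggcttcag
Grin2c: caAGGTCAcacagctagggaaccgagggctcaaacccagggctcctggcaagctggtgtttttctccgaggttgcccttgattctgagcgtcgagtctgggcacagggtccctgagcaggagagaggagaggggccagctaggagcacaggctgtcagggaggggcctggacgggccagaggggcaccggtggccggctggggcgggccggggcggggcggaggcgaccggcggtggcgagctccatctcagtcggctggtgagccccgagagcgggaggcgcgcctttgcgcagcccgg
Such matches were as common elsewhere. AGGTCA stood in 12.3% of the 683 windows of genes higher in proestrus, in 12.9% of the 178 of genes higher in estrus and in 11.8% of the 11313 windows of genes tested. The full palindrome, GGTCA and TGACC with 3 bases of any kind between them, overlaps the same letters and stood in 0 of the 11313 and in 18 of all 27025 windows of the table. GGGCGG, the GC box, stood in 69.5% of windows of genes higher in proestrus, in 65.2% of those higher in estrus, in 79.6% of the 103 windows of the Rbfa-correlated set and in 63.5% of those tested. A match is a run of letters and says nothing of binding.

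Calls among synaptic genes went in both directions. Of 35 glutamate receptor genes 4 fell and none rose, against 1.56% and 5.25% of all genes, with a median of -0.14 and 7 positive. Gria3, an AMPA receptor subunit on chromosome X at 41400854 to 41678601, measured 6.58, 6.55, 6.55, 6.63 and 6.72 in proestrus and 6.83 to 7.09 in estrus with a median of 6.87. It did not overlap between the stages and fell by 0.36 (SE 0.10, FDR = 0.019). Grin2a, an NMDA receptor subunit, measured 8.21, 7.95, 8.12, 8.34 and 8.07 against 8.38 to 8.69 with a median of 8.45, with no overlap (-0.37, SE 0.12, FDR = 0.0462). Grin2b fell too (-0.38, SE 0.12, FDR = 0.0399), although 8_2 at 8.99 was above every estrus mouse, as did Grin2c (-0.86, SE 0.27, FDR = 0.0399). The count rests on single mice of both stages. Without 4_1, without 2_3 or without estrus mouse 1_1 none of the 35 fell, without 20_2, 3_2 or 5_3 only 1 did, without 3_1 2 did, and with edgeR or DESeq2 none did. None of 12 GABA-A receptor subunits passed, although 12 of 12 fold changes were negative, with a median of -0.20 and Gabrb1 first (-0.25, FDR = 0.0621).

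Of 21 postsynaptic scaffold and kinase genes 4 rose and 2 fell, against the same 5.25% and 1.56%. Among the latter, Dlg3, encoding SAP102, fell by 0.34 (SE 0.11, FDR = 0.0373). Homer3 (0.92, SE 0.23, FDR = 0.0105), Dlgap3 (0.89, SE 0.23, FDR = 0.0119), Nrgn and Camk2g (0.23, FDR = 0.043) rose. Over this list the median was -0.17, with 5 of 21 fold changes positive. Without 4_1, 1 of the 21 rose and none fell. Homer3 and Dlgap3 were not called with the mean of the Rbfa-correlated set as a covariate. Presynaptically, the vesicle GTPase Rab3a rose (0.29, SE 0.08, FDR = 0.0218) and Pclo, the active zone protein piccolo, fell (-0.36, SE 0.10, FDR = 0.026), 1 each of 18. Ank3, ankyrin G of the axon initial segment, fell (-0.28, SE 0.09, FDR = 0.0399), the only 1 of 16 node genes. Among 43 motor genes 4 rose, the kinesin light chains Klc1, Klc2 and Klc3 and Dctn2, against 5.25% of all genes. The heavy chains Kif1b and Kif21a fell, 2 of 43 against 1.56%. The list median was 0.004, with 22 of 43 fold changes positive. The calls of Klc1 and Klc3 were lost without 4_1. None of the 3 light chains was called with GC content and length corrected or with the Rbfa-set covariate. Klc1 (r = 0.86) and Homer3 (r = 0.76) varied with Rbfa in the 43 other libraries. Of 46 clustered protocadherins, which give neurons their surface identity, Pcdhb12 (-1.04, SE 0.24, FDR = 0.00615) and Pcdhb19 (-0.72, SE 0.21, FDR = 0.0279) fell, against 1.56% of all genes, with a list median of -0.29. Members of this cluster share sequence, so how reads fell to each is uncertain. Of 73 potassium channel genes 4 rose, near the 5.25% of all genes, including the 2 choroid plexus genes named above, Kcnh3 (0.89, SE 0.22, FDR = 0.00942) and Kcnk13 (0.81, SE 0.23, FDR = 0.0239). Another 4 fell, against 1.56% of all genes, led by Kcnj2 (-0.75, SE 0.23, FDR = 0.0373), but none did without 1_1, 3_2 or 5_3. In the motor list the 2 falling genes were lost without any 1 of 2_3, 20_2, 1_1, 3_1, 3_2 and 5_3.

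Few genes of the housekeeping groups passed. None of 80 ribosomal protein genes did, and their median was -0.10, while their mean level was 8.68 in 8_2 and 7.76 to 8.08 in the other 11 mice. Of 82 nuclear respiratory chain genes 3 rose, Cox8b (2.29, FDR = 0.00518), Uqcrfs1 and Cox6b2 (0.84, FDR = 0.0416), against 5.25% of all genes, with a list median of -0.08. This list's mean level, too, was higher in 8_2 (8.27) than in the other 11 mice (7.49 to 7.76). None of the 13 mitochondrial mRNAs passed. All 13 had negative fold changes in WT, with a median of -0.38, while the KO median was 0.53. Their mean level in WT estrus was 7.54 to 8.55. In WT proestrus, 20_2 (7.10) and 5_4 (7.34) were below that range. Mice 2_3 (7.96) and 4_1 (7.95) were within it, and 8_2 (8.62) was above it. Of 18 core snRNP genes 3 rose, Lsm2, Snrpa (0.32, FDR = 0.0416) and Snrpb (0.33, FDR = 0.0488), against 5.25% of all genes. The list median was -0.01, with 9 of 18 fold changes positive. Snrpa did not overlap between the stages, as held for 0.823% of all genes in that direction. The mean level of the snRNP list was 6.21 in 8_2 and 5.55 to 5.81 in the other 11 mice. Bc1, a small brain RNA polymerase III transcript that represses translation in dendrites, fell by 0.93 (SE 0.23, FDR = 0.00904), at 8.25, 8.21, 7.77, 7.94 and 9.12 against 8.61 to 9.34, again with 8_2 among the estrus mice.

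**Figure D4:**
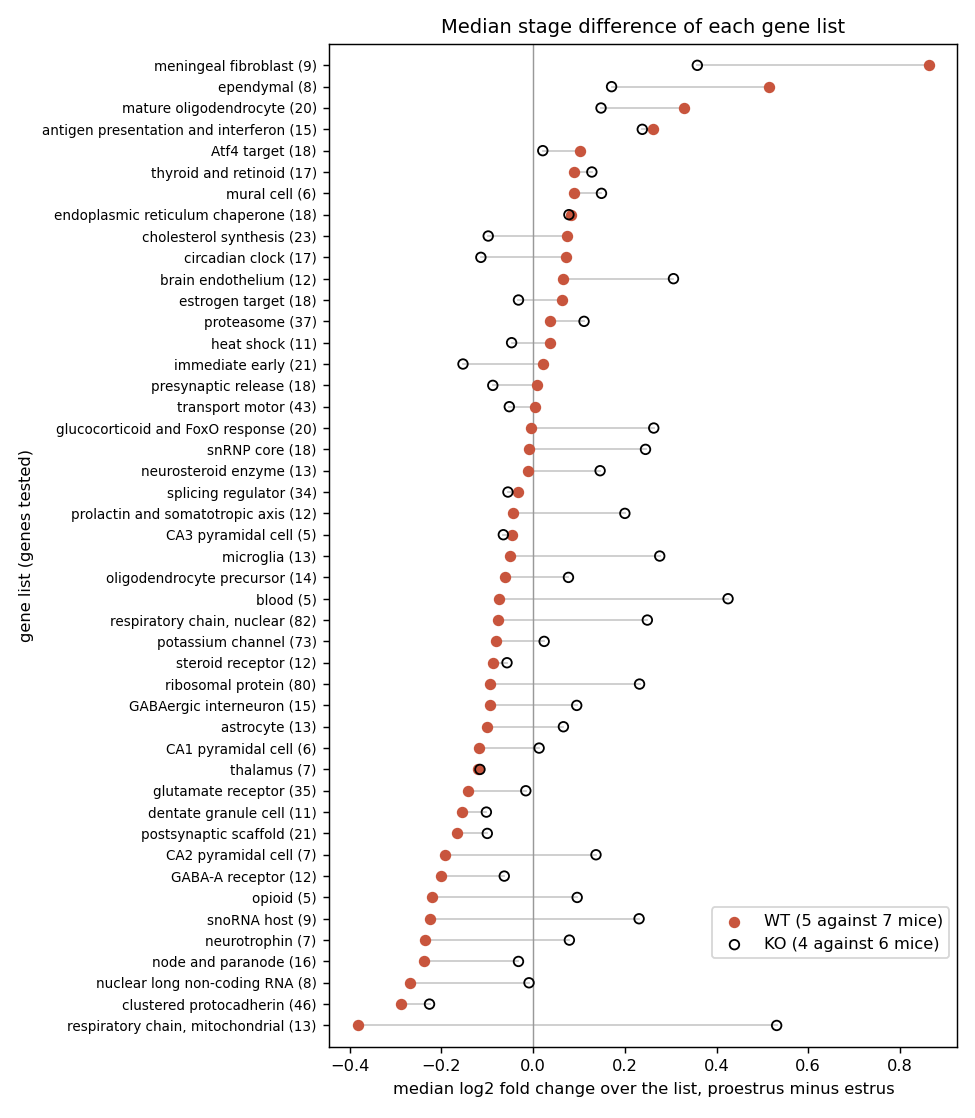
Median log2 fold change (x axis, proestrus minus estrus) of 46 gene lists with at least 5 genes tested, in WT and in KO, with the choroid plexus list left out because of its scale. The meningeal list lies highest in WT at 0.86, and the mitochondrial mRNAs lie at -0.38 in WT and 0.53 in KO.

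The same stages were set side by side in KO mice, 4 in proestrus aged 13 to 14.57 weeks and 6 in estrus aged 13 to 20.71 weeks. There 82 genes (0.507%) were DEGs, 58 higher in proestrus (0.359%) and 24 higher in estrus (0.148%). No gene differed in its stage effect between WT and KO at an FDR under 0.05 (limma, 0%). At an unadjusted p under 0.05 there were 2480, the smallest FDR was 0.0702, and edgeR and DESeq2 gave 0 as well, with 891 and 927 at an unadjusted p under 0.05. The counts of 1102 and 82 are thus not a tested difference between the genotypes. The KO and WT mice are separate samples, and 777 of the 1102 WT DEGs (70.5%) had the same sign in KO, against 55.9% of all genes. Outside the Rbfa-correlated set it was 76.3% of 1010. The libraries that gave this set include the KO proestrus and estrus mice, so this higher share depends in part on that choice. After the GC and length correction the share of the 1102 with the same sign was 62.5%, against 53.4% of all genes. Across the 1102 genes the fold changes had a Pearson r of 0.395, as a description over genes that share base composition effects.

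Both genotypes called 26 genes, and all 26 had the same direction. They are 26 of the 82 KO DEGs, while 6.82% of all genes were DEGs in WT. With GC content and length corrected, KO mice had 7 DEGs, 6 of them among the 82. Without that correction, edgeR called 4 genes in KO. Zfp688, a zinc finger protein, measured 4.59, 4.75, 4.81, 4.57 and 4.91 in WT proestrus against 4.02 to 4.38 in WT estrus with a median of 4.24, with no overlap. It rose by 0.50 (SE 0.10, FDR = 0.00282) in WT and 0.66 (FDR = 0.00496) in KO. Tsc22d4, a leucine zipper protein, measured 7.12, 7.32, 7.68, 7.35 and 7.45 against 6.73 to 7.09 with a median of 6.86, also with no overlap, and rose by 0.51 (SE 0.11, FDR = 0.00466) and 0.66 (FDR = 0.00927). Vps72 rose by 0.52 (FDR = 0.0272) in KO. Nkx6-2 was the 1 mature oligodendrocyte marker called in both (KO 1.02, FDR = 0.0233), and Josd2, a deubiquitinase (0.61 and 0.58), Ninj1, a membrane rupture protein (0.51 and 0.58), and Samd14 (0.73 and 0.61) rose in both.

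Once each library was corrected for GC content and length, chosen after seeing the data, 4 genes differed between the genotypes in their stage effect, all at an FDR of 0.0167. Grin2c differed by -1.70 (-1.12 in WT, 0.58 in KO) and Ppp1r14a by 1.61 (1.08 in WT, -0.54 in KO). Atp13a2, a lysosomal polyamine transporter, differed by -0.65 and Tmem205 by -0.61. Without the correction none of them passed.

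Of the 849 genes higher in WT proestrus, 496 had an r of 0.5 or less with both the choroid plexus level and Rbfa. Their median fold change was 0.44 in WT and 0.20 in KO. Of these 496, 83.5% had the same sign in KO, against 70.7% of all 849 and 55.9% of all genes. The r values come from libraries that include the KO proestrus and estrus mice, so this share depends in part on that choice. It was not recomputed with GC content and length corrected. For the 1102 WT DEGs the share after that correction was 62.5%, against 53.4% of all genes. Vps72, Zfp688 and Tsc22d4 are among the 496.

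**Figure D5:**
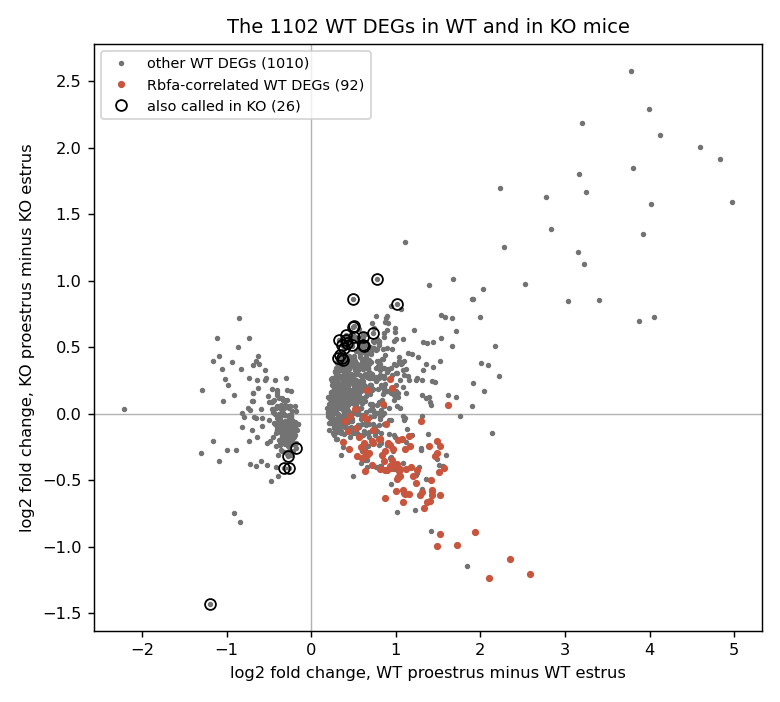
Log2 fold change (proestrus minus estrus) of the 1102 WT DEGs in WT (x axis) and KO (y axis), with the 92 genes of the Rbfa-correlated set and the 26 genes called in both marked. All 26 lie in the quadrants of equal sign, and 6 of the 92 do.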

How the data were processed

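Poly-A RNA was sequenced from 55 dorsal hippocampi, 1 library per mouse. The authors aligned reads to GRCm38 with STAR 2.7.9a and deposited raw gene counts from featureCounts 2.0.3, which are the source of every value. They also deposited log2 CPM values, used here only as a check of the normalization. Over 16164 genes the recomputed values differed from these by at most 5e-14. Of the columns of the count table, 1 belongs to no listed sample and was not used. Repeated lines were merged, which left 55487 genes from 55774 lines.

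As in the study's methods, a gene had to exceed 1 CPM in 10 or more libraries, and 5 ribosomal RNA genes were dropped. Counts were TMM-normalized in edgeR 4.0.16 and fitted by voom with sample quality weights in limma 3.58.1 under R 4.3.3, with 1 mean per group over all 55 libraries. Quality weights reduce the part of a library that lies far from its group, so a fold change can differ from the difference of plain means. The FDR is that of Benjamini and Hochberg over all 16168 genes of a comparison. Each library is a separate mouse. On simulated counts for WT proestrus against WT estrus (16168 genes), the fit found 28.8% of 80 genes changed by 0.5 on the log2 scale. It found 83.8% of 80 changed by 1 and 100% of 40 changed by 2, with 6 false calls among 15968. The simulated libraries had no outlying mouse, no GC slope and no co-varying genes. The rate of false calls in the real comparison is therefore not known from them.

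Library measures were compared by exact permutation tests over 792 splits, for which the smallest p is 0.00126. Gene positions, GC content and length come from the GENCODE annotation of GRCm38 (16156 genes matched, 99.9%), and promoter windows from RefSeq's table of GRCm38.p6, which held 11313 of the genes tested. Named genes are the 12 DEGs of smallest p and the 8 of largest fold change with a mean above 1 log2 CPM over the 12 libraries in each direction, called members of each list (up to 5, or up to 2 of smallest p where none was called), hormone and Cnih3 genes, and genes called in both genotypes. The libraries compared, the gene lists and the named genes were chosen with earlier results of these data known. Choroid-correlated genes, Camk2g, Dctn2, Mbp, Mog, F5 and Kl were named after their values were seen. Alternatives were edgeR's quasi-likelihood test, DESeq2 1.42.0, no quality weights, RLE factors, no filter, covariates, left-out mice, and corrections for GC content and length. Results of some genes are not reported here.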

Additional observations from a re-analysis of the deposited data

Results flagged for a closer look

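Among 306 groups of values (the named genes and library measures, in the 5 proestrus or the 7 estrus mice), 23 held 1 mouse far from the others by Dixon's test. Chance gives about 1 in 20, or 15. Levels are in log2 CPM.

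Proestrus mouse 8_2 accounted for 10 of the 23. It was low for Eif4h, a translation initiation factor, at 8.389, for Taf6l at 0.937, for the chaperone Dnajb1 at 5.934, for Rps2 at 6.922, for Klc2 at 5.887 and for Mvb12a at 4.742. It was high for the transcription factor Cebpb at 2.872, for Crim1 at 6.154 and for Rpl32l at 4.378, and its 50 most abundant genes took 22.19% of its counts. In each of the 6 low genes and in Cebpb, Crim1 and Rpl32l, 8_2 lay on the side of the estrus mice.

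Estrus mouse 2_1 accounted for 5. It was high for Rbfa at 3.733, Plk5 at 5.195, Uqcrfs1 at 7.82 and Nrgn at 11.397, and low for mt-Co3 at 7.991. Rbfa, Plk5, Uqcrfs1 and Nrgn belong to the Rbfa-correlated set.

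The other 8 were single values. Gm2606 at 1.197 and Ccdc36 at 3.38 were high in estrus mouse 5_2, while Col1a1 at 0.545 and Cox8b at -2.243 were low in estrus mouse 8_3. Cox6b2 was low in proestrus mouse 5_4 at 1.3 and in estrus mouse 5_3 at 0.844. Dock10 was low in proestrus mouse 20_2 at 5.082, and Pcdhb19 in proestrus mouse 4_1 at 0.974.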

How the results depend on the processing

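The count of WT DEGs (1102) was 15 with edgeR, 74 with DESeq2, 0 without sample quality weights and 43 without the filter on low counts. It was 1741 without proestrus mice 4_1 and 8_2, whose RNA integrity was lower, and 1964 without the proestrus mice under 14 weeks, 20_2 and 5_4. RLE factors (1126), age as a covariate (1340), the 12 libraries alone (1044), leaving out 8_2 and 8_3 (1628) and a random effect of the mouse number (1101) stayed within 1.5 times. Leaving out 1 mouse at a time gave 561 (without 4_1) to 1686 (without 5_4), and 716 without 2_3. Of alternatives chosen after seeing the data, the Rbfa-correlated set as a covariate gave 2939, and leaving out 8_2 gave 143 without quality weights and 169 with edgeR. Leaving out 8_2 and 2_1 gave 1441, and GC correction 893, or 938 with length. Of the 1102, 671 were kept with GC correction, 580 with length as well and 694 with the covariate. The DEGs split into 849 higher in proestrus and 253 higher in estrus without these, 556 and 337 with GC content, 516 and 422 with GC content and length, and 1423 and 1516 with the covariate.

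List members called (76) were 0 with edgeR, 9 with DESeq2, 0 without quality weights, 1 without the filter, 45 with the choroid plexus level as a covariate, 129 without 20_2 and 5_4 and 204 with the Rbfa-set covariate. Without 8_2 they were 3 without quality weights and 10 with edgeR, and without single mice 25 (4_1) to 115 (5_4), with 33 without 2_3, 50 without 20_2 and 45 without 1_1.

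KO DEGs (82) were 4 with edgeR, 5 without quality weights, 15 without the filter, 629 with age as a covariate, 16 with GC correction, 7 with GC and length, 173 with the Rbfa-set covariate, and 3 to 306 without single mice. The difference between genotypes (0) was 4 with GC and length corrected.

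With the choroid plexus covariate, Ttr (-0.247), Ecrg4 (-0.151), Clic6 (-0.187), Calml4 (-0.096) and Prlr (-0.318) turned negative, as the covariate is made of such genes. Rbm25 was 0.042 with GC and length corrected, and Xbp1 was -0.074 and Nrgn -0.081 with the Rbfa-set covariate. The cause was not tested. No other DEG among the named genes changed sign under any alternative run. The labels tie no proestrus mouse to 1 estrus mouse, so no fit by pairs was made. Some mice share the first part of their number across stages (2_3 with 2_1, 5_4 with 5_2 and 5_3, 8_2 with 8_3), and with that part as a random effect, a block whose estimated correlation was -0.00248, 1101 genes were DEGs.

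With 5 against 7 mice, changes near 0.5 on the log2 scale were mostly missed in simulated data, so a gene that did not pass is not shown to be equal. Mean age was 15.5 weeks in proestrus and 17.7 weeks in estrus, a difference that did not pass its test. Mouse 20_2, the youngest, is in proestrus.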
